A study of Mus musculus with 4 samples.

Results

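Cancer-associated fibroblasts (CAF) with the *Cxcl13* reporter on at harvest (tdTomato+ eGFP neg) were set against CAF that showed neither reporter (tdTomato neg eGFP neg, here called double-negative), to ask how the transcripts of the 2 sorted populations differed. A cell was a member when it had 500 to 6000 detected genes, at most 10% of its unique molecular identifiers (UMIs, which mark single captured transcripts) from mitochondrial genes, no UMI of *Ptprc* (CD45) or of the melanoma gene *Pax3*, and at least 3 UMIs of *Col1a1*, *Col1a2* and *Col3a1* together. These limits kept 14500 of the 17044 barcodes of the 2 libraries, out of 24489 in the whole series. They were 4634 of 5299 barcodes (87.5%) in the tdTomato+ eGFP neg library and 9866 of 11745 (84.0%) in the double-negative library.

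The mice were Cxcl13-cre-tdTomato crossed with R26R-eGFPflox, on the host strain C57Bl/6, and both populations came from this 1 cross. They received 400000 B16-F1-OVA melanoma cells intraperitoneally, and tumors were taken on day 14. Cells negative for CD45 and CD31 and high in podoplanin (PDPN) were sorted by tdTomato and eGFP into 4 populations, each sequenced as 1 10x Genomics 3′ library. tdTomato comes from the *Cxcl13* transgene itself and so follows its activity at harvest, whereas eGFP stays on once recombination has switched it on. The gene list of the files holds neither reporter, so membership of a population rests on the sort alone. The study used mice of both sexes, and the age, the number of tumors and the sexes pooled in a library are not given in the sources used here.

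CXCL13 is the ligand of CXCR5 and draws B cells and follicular helper T cells into lymphoid follicles, where it is made by specialised stromal cells. Tumor fibroblasts are known for collagen and other matrix, for chemokines that recruit myeloid and lymphoid cells, and for growth factors that act on vessels. The peritoneal cavity also holds mesothelial cells, which carry simple-epithelial keratins and mesothelin, and adventitial fibroblasts, often called universal fibroblasts, marked by *Pi16* and *Dpp4*.

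The whole tdTomato+ eGFP neg library held 52046896 UMIs and the double-negative library 90259852. Kept cells had a median of 9117.5 UMIs and 2811 genes in the tdTomato+ eGFP neg library and 5776 UMIs and 2040 genes in the double-negative library. Because depth differed, levels are given as UMIs summed over kept cells and scaled to 1000000 (CPM), and shares of cells with a UMI both as sequenced and after thinning each cell to 1000 UMIs, which left out 34 and 262 shallower cells. With 1 library a side no difference between populations could be tested across samples. All intervals, exact Poisson for CPM, exact Clopper-Pearson for shares and conditional binomial for ratios, are at the 95% level and cover counting error only. The 2 libraries shared 21 barcode sequences. A log2 ratio is the CPM of tdTomato+ eGFP neg cells over that of double-negative cells, and a gene was called higher or lower when the ratio was at least 2-fold.

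The kept cells of both libraries carried fibroblast genes. All 11 genes of the fibroblast list were above a mean of 20 CPM. Of them 0 were called higher and 1, *Lum*, lower, against 2.09% and 1.54% of all compared genes, and the median log2 ratio was 0.36. The list summed to 31352 CPM in tdTomato+ eGFP neg cells and 21203 CPM in double-negative cells, with *Col3a1* the most abundant. The collagens *Col1a1*, *Col1a2* and *Col3a1* were part of the rule and made up most of this sum, so the sum is no separate check of cell type. Without them 5 of 8 lay above 0 and the median was 0.23. *Pdgfra*, a receptor for platelet-derived growth factor that was not part of the rule, was found at 341 and 175 CPM, and *Pdpn*, the gene of the sorting antigen, at 319 and 218 CPM.

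At the collagen limit the cells were shallower and held more melanoma RNA. In the tdTomato+ eGFP neg library 31 cells with 3 to 5 collagen UMIs lay just inside and 33 with 1 or 2 just outside, with median depths of 1860 and 1539 UMIs and 2630 and 1889 CPM of the melanoma list, against 50.6 CPM over all kept cells. In the double-negative library 714 cells lay just inside and 446 just outside, with median depths of 1524 and 1239 UMIs and 3026 and 3399 CPM of the melanoma list, against 304 CPM over all kept cells. With at least 10 collagen UMIs required, 113 of 119 higher calls and 81 of 88 lower calls were still past 2-fold.

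Sex-linked transcripts were mixed in both libraries. *Xist*, which marks the inactive X chromosome of female cells, was found without any Y-linked UMI in 2000 tdTomato+ eGFP neg cells and 2512 double-negative cells (*Xist*-only), and Y-linked UMIs without *Xist* in 1030 and 1961 (Y-only). *Xist*-only cells were 66.0% (64.3 to 67.7) and 56.2% (54.7 to 57.6) of *Xist*-only and Y-only cells together, 75 and 204 cells held both and 1529 and 5189 held neither. *Xist* itself was at 219 and 117 CPM (0.91) and the Y-linked *Ddx3y* at 26.8 and 27.8 CPM (-0.05), the 2 of 5 sex-linked genes above the CPM minimum, with a median of 0.43 and no call. Because the makeup differed, values of named genes and medians of lists, over the same members, are also given within *Xist*-only and within Y-only cells at a number of places where they changed.

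*Cxcl13* checked the sort. It was found at 2203 CPM (2189 to 2216) in tdTomato+ eGFP neg cells and 222 CPM (218 to 225) in double-negative cells, a log2 ratio of 3.31 (3.29 to 3.34). The tdTomato+ eGFP+ library, with both reporters, held 1123 CPM and the tdTomato neg eGFP+ library 199 CPM, so the 2 tdTomato+ libraries were the highest of the 4. At least 1 UMI was found in 69.3% of tdTomato+ eGFP neg cells and 14.4% of double-negative cells, or 43.5% and 6.86% after thinning. The 67 and 294 cells with a *Pax3* UMI that passed the gene and mitochondrial limits and held no *Ptprc*, melanoma cells by that mark, gave the background: 46.3% and 10.5% at median depths of 18667 and 19870.5 UMIs, and 10.4% and 2.73% after thinning. Both sorted populations were therefore above the thinned *Pax3* background of their own library. The 191 and 119 cells with a *Ptprc* UMI and no *Pax3* gave another background, 28.3% (21.9 to 35.4) and 6.14% (2.50 to 12.2) after thinning. The tdTomato+ eGFP neg share was above it, and the double-negative share lay within its interval. After thinning 62.5% and 43.0% of these *Ptprc* cells also held *Col1a1*.

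The transcript was not evenly spread. Among tdTomato+ eGFP neg cells 30.7% held no *Cxcl13* UMI and 34.7% held at least 10, while 3.75% of double-negative cells held at least 10. The 10% of double-negative cells with the most *Cxcl13* held 97.4% of that library's UMIs of the gene, against 64.3% in the tdTomato+ eGFP neg library. In the double-negative library 85.6% of cells held none, so this contrast largely restates how many cells held the gene, at unequal depth. The log2 ratio was 2.74 in *Xist*-only cells, at 1851 and 278 CPM, and 4.21 in Y-only cells, at 2384 and 129 CPM.

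Across 5707 genes with a mean of at least 20 CPM over the 2 libraries, 119 were called higher in tdTomato+ eGFP neg cells, which is 2.09% of those compared, and 88 lower, which is 1.54%. These shares are the background for the counts of called genes in every list, also where a list gave no call. The median log2 ratio of all compared genes was 0.08, and 58.2% of them lay above 0. Of the called genes 57.5% were higher, and 46.0% when the libraries were scaled by the median of gene ratios.

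Lower calls were kept less often in Y-only than in *Xist*-only cells, while higher calls were kept equally often. All 119 higher genes kept their sign in both *Xist*-only and Y-only cells, and 57 were past 2-fold in both, 24 in *Xist*-only cells alone, 24 in Y-only cells alone and 14 in neither. Of the 88 lower genes, 32 were past 2-fold in both, 48 in *Xist*-only cells alone, 3 in Y-only cells alone and 5 in neither, and 87 had the same sign in both. Whether the sexes differed was not tested, since the mice cannot be told apart within a library.

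**Figure D1:**
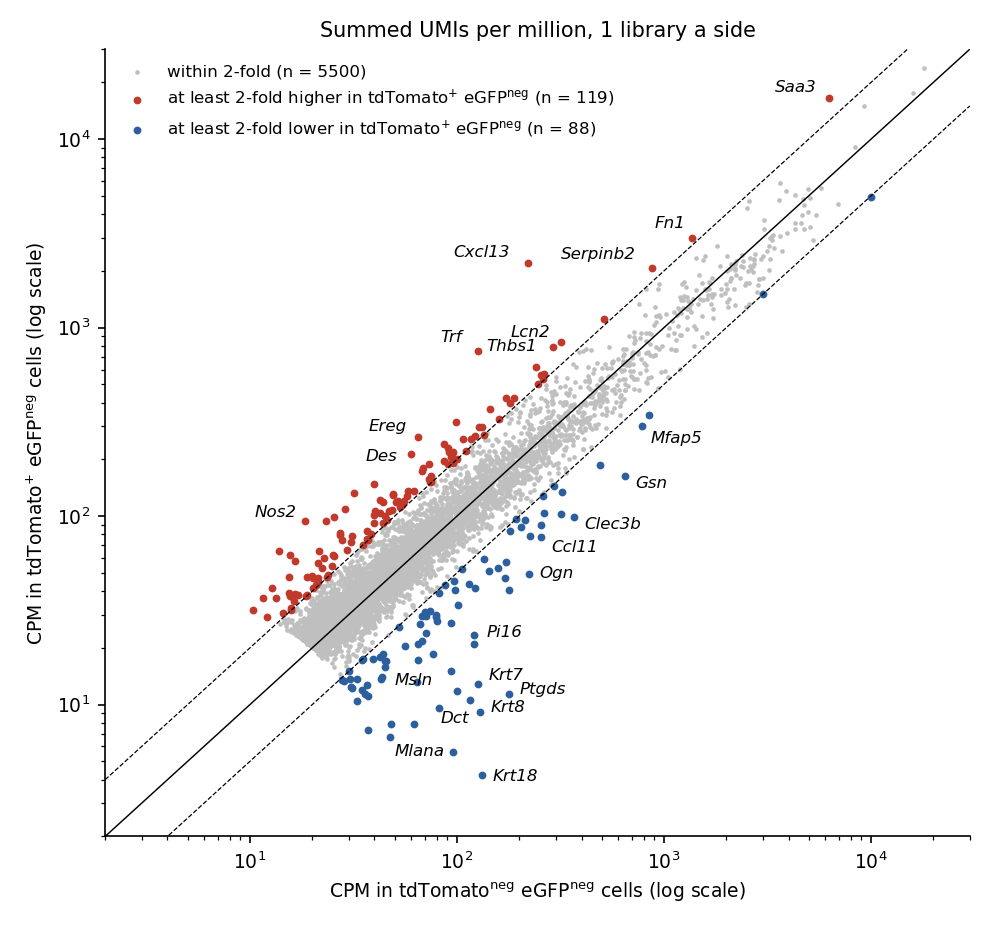
CPM of 5707 compared genes in double-negative cells (horizontal axis) and tdTomato+ eGFP neg cells (vertical axis), both on log scales, with equality as a solid line and 2-fold as dashed lines. The 119 genes called higher (red) include *Cxcl13* and *Saa3* and the 88 called lower (blue) include *Krt18* and *Gsn*.

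*Trf*, *Nos2* and *Ereg* were among the highest ratios at a mean of at least 50 CPM. *Trf*, which encodes the iron carrier transferrin, was found at 756 CPM in tdTomato+ eGFP neg and 127 CPM in double-negative cells, a log2 ratio of 2.58 (2.55 to 2.61). *Nos2*, the inducible nitric oxide synthase, was at 93.9 and 18.4 CPM, a ratio of 2.35 (2.26 to 2.44). *Ereg*, whose product epiregulin activates the EGF receptor, was at 263 and 65.2 CPM, a ratio of 2.01 (1.97 to 2.06). All 3 were past 2-fold within *Xist*-only and within Y-only cells, and in the tdTomato+ eGFP+ library they stood at 744, 70.1 and 269.5 CPM.

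Shares of cells differed in the same direction. After thinning, 17.8% of tdTomato+ eGFP neg cells and 3.80% of double-negative cells held an *Ereg* UMI (51.9% and 15.3% as sequenced), over backgrounds in *Pax3* cells of 4.48% and 0.341% (14.9% and 6.80% as sequenced). For *Trf* the thinned shares were 30.0% and 7.40% (65.4% and 24.4% as sequenced), and the background was 10.4% and 8.19% (82.1% and 70.7% as sequenced). By thinned shares *Trf* was above its *Pax3* background in tdTomato+ eGFP neg cells, and its share in double-negative cells was not. In *Ptprc* cells the thinned *Trf* shares were 26.1% (19.9 to 33.1) and 10.5% (5.56 to 17.7). The *Trf* shares of kept cells lay within these intervals in both libraries.

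The other 11 of the 15 highest ratios spanned several roles. *Apln*, the ligand of the apelin receptor, was at 94.6 and 23.4 CPM (2.01 on the log2 scale), and *Vegfc*, which acts on lymphatic vessels through VEGFR3, at 81.0 and 27.3 CPM (1.57). *Ccl24*, an eosinophil chemokine that binds CCR3, was at 98.8 and 25.6 CPM (1.95). *Sema3a*, a secreted guidance protein, was at 147 and 39.9 CPM (1.89), and the water channel *Aqp1* at 109.6 and 28.9 CPM (1.92). These genes came from unrelated families. The intermediate filament gene *Des* was at 213 and 60.1 CPM (1.82), the integrin subunit *Itga9* at 79.3 and 27.3 CPM (1.54), and *AA467197* at 132 and 31.9 CPM (2.05). *Col24a1*, *Igfbp3* and *Enpp2* complete the 15 and stand with their families. All 11 were past 2-fold in both sex marks, and the ratio of *Sema3a* was 1.30 and that of *AA467197* 1.37 in Y-only cells.

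Genes of lymphoid stromal organisers were mostly above 0. Of 20 list members 10 were compared, 4 were called higher, against 2.09% of all compared genes, and 0 lower, and the median log2 ratio was 0.62, against 0.08 over all compared genes. Besides *Cxcl13* the 3 were enzymes of lipid signals. The oxysterol hydroxylase genes *Ch25h* and *Cyp7b1* were at 106 and 40.2 CPM (1.40, 1.34 to 1.47) and at 229.9 and 90.3 CPM (1.35, 1.30 to 1.39). *Enpp2*, or autotaxin, which makes lysophosphatidic acid, was at 243 and 86.9 CPM (1.48, 1.44 to 1.52). The call of *Cyp7b1* was lost in *Xist*-only cells, at 0.83. *Hsd3b7*, an enzyme of oxysterol breakdown, was at 18.5 and 19.5 CPM, under the minimum.

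Over all kept cells the other organiser chemokines were not called. *Ccl19*, a CCR7 ligand, was lower in tdTomato+ eGFP neg cells without being called, at 40.1 and 74.5 CPM (-0.89, -0.97 to -0.82), and it was past 2-fold in *Xist*-only cells (-1.30) but not in Y-only cells (-0.20). *Ccl19* was also past 2-fold without cells above 20000 UMIs, without melanoma, myeloid or endothelial UMIs and without cycling UMIs. The same held among cells with no mesothelial UMI and as a mean over cells. In cells thinned to 1000 UMIs 1 of the 10 compared organiser genes was called lower, against 153 of all 5781 compared genes. *Cxcl12*, the CXCR4 ligand, was at 609.7 and 531 CPM (0.20), and its direction differed between the marks, with -0.34 in *Xist*-only and 1.25 in Y-only cells. The adhesion ligands *Vcam1* and *Icam1* were at 387 and 355 CPM (0.12) and at 94.7 and 59.0 CPM (0.68). The other 10 members were under a mean of 20 CPM, among them the CCR7 ligand *Ccl21a* at 0.0217 and 2.97 CPM and the B-cell survival factor *Tnfsf13b* at 8.29 and 11.4 CPM.

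In the list of monocyte and eosinophil chemokines, which leaves out *Ccl24*, 1 gene was called. *Ccl11*, an eosinophil chemokine that shares CCR3 with *Ccl24*, was called lower, at 77.3 and 254 CPM (-1.71, -1.77 to -1.66), and its ratio was -2.47 in *Xist*-only but -0.57 in Y-only cells. *Ccl2*, the main monocyte chemokine by level, was at 4311 and 2530.4 CPM (0.77), and *Ccl7* at 1700.3 and 1228 CPM (0.47). Of this list 6 of 9 were compared, with 0 higher and 1 lower (against 1.54% of all compared genes) and a median of 0.41.

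None of the 4 compared neutrophil factors of 7 was called, against 2.09% and 1.54% of all compared genes. Their median was 0.39, or 0.33 in *Xist*-only and 0.24 in Y-only cells. In thinned cells 1 was called higher, against 188 of 5781 compared genes, and so it was as a mean over cells (178 of 5796) and without cells above 20000 UMIs (130 of 5688). *Cxcl5*, a CXCR2 ligand, was at 742 and 391 CPM (0.93) and *Csf3*, the neutrophil growth factor, at 81.4 and 45.7 CPM (0.83), while *Cxcl1* was nearly equal at 1424 and 1486 CPM (-0.06). The ligands of CXCR3 and CXCR6 gave 3 of 4 compared genes, no call and a median of 0.57. Here *Cxcl10* and *Cxcl9*, which share the receptor CXCR3, moved apart, at 1613 and 823 CPM (0.97) and at 538 and 841 CPM (-0.64), with *Cxcl9* at -1.24, past 2-fold, in *Xist*-only and -0.21 in Y-only cells.

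The receptors *Il1r1* and *Il4ra* were called higher in tdTomato+ eGFP neg cells. In the IL-6 and IL-1 family list 10 of 16 genes were compared, these 2 were called higher and 0 lower, against 2.09% and 1.54% of all compared genes, all 10 lay above 0 and the median was 0.50, or 0.19 in *Xist*-only and 0.70 in Y-only cells. *Lifr*, a receptor chain for leukemia inhibitory factor, had the smallest ratio (0.13, at 26.4 and 24.2 CPM) and fell below 0 in *Xist*-only cells (-0.63). *Il1r1*, the signalling receptor for IL-1, was at 615 and 242 CPM (1.34, 1.32 to 1.37) and stayed above 1 in both marks. *Il4ra*, a chain of the IL-4 and IL-13 receptors, was at 136 and 62.2 CPM (1.13, 1.07 to 1.18), and fell just under 2-fold in each mark, at 0.92 and 0.96. The cytokines *Il6* and *Il33* were at 208 and 143 CPM (0.55) and at 485 and 314 CPM (0.63), with *Il33* at 0.18 in *Xist*-only and 1.12 in Y-only cells. Outside the list, and chosen after their values were seen, the receptor chains *Il1rl2* and *Il1rap* were also called higher, at 62.0 and 25.3 CPM (1.29) and at 43.1 and 20.9 CPM (1.05). *Il1rap* was close to the 2-fold line and lost its call by median-of-ratios scaling.

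*Saa3* and *Lcn2* were also called higher. *Saa3*, which encodes a serum amyloid A protein, reached 16482 CPM in tdTomato+ eGFP neg and 6299.5 CPM in double-negative cells (1.39, 1.38 to 1.39), and *Lcn2*, the iron-siderophore binding lipocalin, 844 and 318 CPM (1.41, 1.39 to 1.43). Both were chosen after their values were seen. In the NF-κB list 14 of 17 genes were compared and none called, against 2.09% and 1.54% of all compared genes, but 13 lay above 0 and the median was 0.39. Among cells with no mesothelial UMI after thinning 2 of the 14 were past 2-fold higher, where 171 of all 5616 compared genes were called higher. Over all kept cells the largest ratio of the list belonged to *Tnfaip3*, a feedback inhibitor of NF-κB, at 152 and 77.8 CPM (0.97), and *Tnfrsf11b*, the decoy receptor osteoprotegerin, lay below 0 at 113 and 160.0 CPM (-0.50). Complement genes gave 8 compared of 10, no call and a median of 0.43, or 0.23 in *Xist*-only and 0.76 in Y-only cells. *C3*, the most abundant, was at 2411 and 1576 CPM (0.61), with 0.21 in *Xist*-only cells and 1.16, past 2-fold, in Y-only cells.

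For antigen presentation the size of the ratios depended on the mesothelial strata. All 18 MHC class I genes were compared, 16 lay above 0 and the median was 0.58, or 0.42 among cells with at least 2 mesothelial UMIs after thinning and 0.83, with 4 calls, among cells with none. In that last stratum 171 of all 5616 compared genes were called higher. Over all kept cells only *H2-Q7* was called, against 2.09% of all compared genes called higher, at 1108 and 516 CPM (1.10, 1.08 to 1.12). Its UMIs may be shared with near-identical H2-Q genes, and its ratio was 0.82 in Y-only cells. *B2m*, the light chain of every class I molecule, was at 4692 and 2563 CPM (0.87), and the peptide transporter gene *Tap2* at 88.0 and 52.3 CPM (0.75).

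Over all kept cells the proteasome activator genes *Psme1* and *Psme2* lay below 0, at 467 and 562 CPM (-0.27) and at 441 and 509 CPM (-0.21), but lay just above 0 among cells with no mesothelial UMI (0.02 and 0.02). For MHC class II 7 of 9 genes were compared with no call and a median of 0.56, or 0.30 with at least 2 mesothelial UMIs and 1.12, with 4 of 7 called higher (against 171 of all 5616 genes), with none. *H2-Ab1*, a β chain, was at 549.8 and 302 CPM (0.86). The class II transactivator *Ciita* was under the minimum at 4.92 and 3.72 CPM. The invariant chain gene *Cd74* was the most abundant of the class, at 1733 and 1520.1 CPM (0.19), with -0.11 and 0.81 in those strata.

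In the list of interferon-stimulated genes 23 of 24 were compared, 1 was called higher and 0 lower, against 2.09% and 1.54% of all compared genes, with a median of 0.30, or 0.15 in *Xist*-only and 0.38 in Y-only cells. With at least 2 mesothelial UMIs after thinning 0 were called higher, against 154 of all 5846 compared genes, and the median was 0.21. With none 6 were called higher, against 171 of all 5616, and the median was 0.46. The gene called over all kept cells was *Gbp4*, a guanylate-binding protein, at 136 and 57.9 CPM (1.23, 1.17 to 1.29), or 0.92 in Y-only cells. Its relatives *Gbp6* and *Gbp9*, outside the list and chosen after their values were seen, were also called, close to the 2-fold line, at 152 and 74.2 CPM (1.03) and at 38.0 and 18.8 CPM (1.01). The GTPase genes *Irgm1* and *Gbp2* were at 175 and 94.0 CPM (0.90) and at 639 and 363 CPM (0.81). *Isg15*, a ubiquitin-like protein, and *Ifitm3*, a membrane protein and the most abundant of the list, were at 685 and 773 CPM (-0.17) and at 5534 and 5765 CPM (-0.06). These last 4 genes were within 2-fold.

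Growth factors were called in both directions. Of 19 compared genes of 25, 4 were higher and 2 lower, against 2.09% and 1.54% of all compared genes, with a median of -0.12, or -0.24 in *Xist*-only and 0.20 in Y-only cells. *Ereg*, *Vegfc* and *Igfbp3* were joined by *Vegfa*, the main angiogenic VEGF, at 219 and 96.0 CPM (1.19, 1.15 to 1.23). *Igfbp3*, which binds insulin-like growth factors, was at 122 and 42.6 CPM (1.52), and its relative *Igfbp5* was called lower, at 29.2 and 79.5 CPM (-1.45). *Fgf7*, or keratinocyte growth factor, was lower at 13.5 and 27.8 CPM (-1.04). Calls were lost for *Vegfa* in *Xist*-only cells (0.95) and for *Igfbp5* and *Fgf7* in Y-only cells (-0.76 and -0.47).

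Collagen genes were above 0 for the most part. Of 14 compared collagens of the list 2 were called higher and 2 lower, against 2.09% and 1.54% of all compared genes, 12 lay above 0 and the median was 0.38. Without *Col1a1*, *Col1a2* and *Col3a1*, which the rule used, 9 of 11 lay above 0 and the median was 0.26. With at least 2 mesothelial UMIs after thinning 13 of the 14 lay above 0 and the median was 0.61, and with none 9 and 0.17. *Col1a1* and *Col3a1* were at 5854 and 3634 CPM (0.69) and at 14933 and 9279 CPM (0.69). The fibrillar *Col24a1* was at 314 and 99.4 CPM (1.66, 1.62 to 1.70) and *Col12a1*, which sits on the surface of fibrils, at 196 and 86.3 CPM (1.18), or 0.96 in *Xist*-only cells. *Col6a5*, outside the list and chosen after its value was seen, was called higher at 75.0 and 27.8 CPM (1.43). On the lower side were *Col14a1*, also a fibril-associated chain, at 52.8 and 159 CPM (-1.59), and the short-chain collagen gene *Col8a1* at 17.0 and 45.6 CPM (-1.43). Both lost the call in Y-only cells, at -0.77 and -0.51.

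Matrix glycoproteins were called in both directions. In the list of matrix glycoproteins and hyaluronan genes all 19 were compared, 3 were higher and 2 lower, against 2.09% and 1.54% of all compared genes, and the median was 0.06, or -0.12 in *Xist*-only and 0.13 in Y-only cells, and 0.43 with at least 2 and -0.35 with no mesothelial UMIs after thinning. Fibronectin, *Fn1*, was at 2989 and 1369.6 CPM (1.13, 1.11 to 1.14) and thrombospondin-1, *Thbs1*, at 791 and 291 CPM (1.44, 1.42 to 1.47), the latter on the 2-fold line in Y-only cells (1.00). The hyaluronan receptor *Cd44* was close to the 2-fold line, at 504 and 247 CPM (1.03), and lost its call in Y-only cells (0.73). The microfibril-associated *Mfap4* and *Mfap5* were lower, at 21.0 and 121 CPM (-2.52) and at 301 and 786 CPM (-1.38).

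Small leucine-rich proteoglycans divided by member. Of 6 compared of 9, 3 were lower, against 1.54% of all compared genes, and 0 higher, with a median of -0.65, or -1.05 in *Xist*-only and -0.19 in Y-only cells and 0.05 with at least 2 mesothelial UMIs. *Aspn* was at 9.61 and 82.2 CPM (-3.10), *Ogn* at 49.2 and 222 CPM (-2.18) and *Lum* at 78.4 and 224 CPM (-1.52), all collagen-binding proteins. Decorin, *Dcn*, by far the most abundant, was at 3726 and 3059 CPM (0.28), and its sign turned when cells were thinned (-0.14). In Y-only cells *Aspn* alone kept its call, at -2.09, and *Ogn* and *Lum* were at -0.97 and -0.75.

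Among proteases and inhibitors 12 of 18 genes were compared, 3 were higher and 1 lower, against 2.09% and 1.54% of all compared genes, and the median was 0.17. It was 0.02 in *Xist*-only and 0.37 in Y-only cells, and 0.41 with at least 2 and 0.08 with no mesothelial UMIs after thinning. *Serpinb2*, the plasminogen activator inhibitor PAI-2, was at 2079 and 877 CPM (1.25, 1.23 to 1.26) and stayed past 2-fold in both marks. The matrix metalloproteinases *Mmp3* and *Mmp19* were at 131 and 49.4 CPM (1.41) and at 158 and 73.5 CPM (1.10), and the gelatinase *Mmp2* was lower at 45.5 and 97.1 CPM (-1.09). The metalloproteinases were called in both directions, and *Mmp19* and *Mmp2* lost their calls in Y-only cells (0.74 and -0.35) and *Mmp3* in thinned cells (0.92). *Timp1*, their most abundant inhibitor, was at 5417 and 4980.4 CPM (0.12).

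Basement membrane genes gave 13 compared, 0 higher, 1 lower (against 1.54% of all compared genes) and a median of 0.12, or -0.29 in *Xist*-only and 0.37 in Y-only cells. The call was the laminin chain *Lama2*, at 17.3 and 64.7 CPM (-1.90, -2.01 to -1.79), with -2.98 in *Xist*-only and -0.68 in Y-only cells. Collagen IV, the main network of these membranes, was at 529.6 and 491 CPM for *Col4a1* (0.11), with -0.44 and 0.65 in the same marks, so its direction depended on them.

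Contractile genes gave 1 call in each direction. Of 9 compared of 13, 1 was higher and 1 lower, against 2.09% and 1.54% of all compared genes, with a median of -0.08, or 0.17 in *Xist*-only and 0.18 in Y-only cells, while the list summed to 3411 and 2898 CPM. The sum was led by the actin-binding *Cald1*, at 1294 and 904 CPM (0.52). *Des* was the higher gene, and the myosin light chain gene *Myl9* the lower, at 13.6 and 30.5 CPM (-1.16), or -0.65 in Y-only cells. *Acta2*, the smooth-muscle actin of myofibroblasts, was at 637 and 675 CPM (-0.08) and *Tagln* at 325 and 353 CPM (-0.12). Adhesion and junction genes gave 18 compared, 0 higher, 1 lower (against 1.54% of all compared genes) and a median of 0.31, or 0.40 in *Xist*-only and 0.14 in Y-only cells. Their lower gene was the claudin *Cldn3*, at 25.9 and 52.4 CPM (-1.02), a call lost in both marks, and *Chl1*, a neural-type adhesion molecule, was at 770.2 and 420.4 CPM (0.87). Among cells with no mesothelial UMI after thinning the median of these genes was 0.67, with 2 higher (against 171 of all 5616 genes) and 0 lower.

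**Figure D2:**
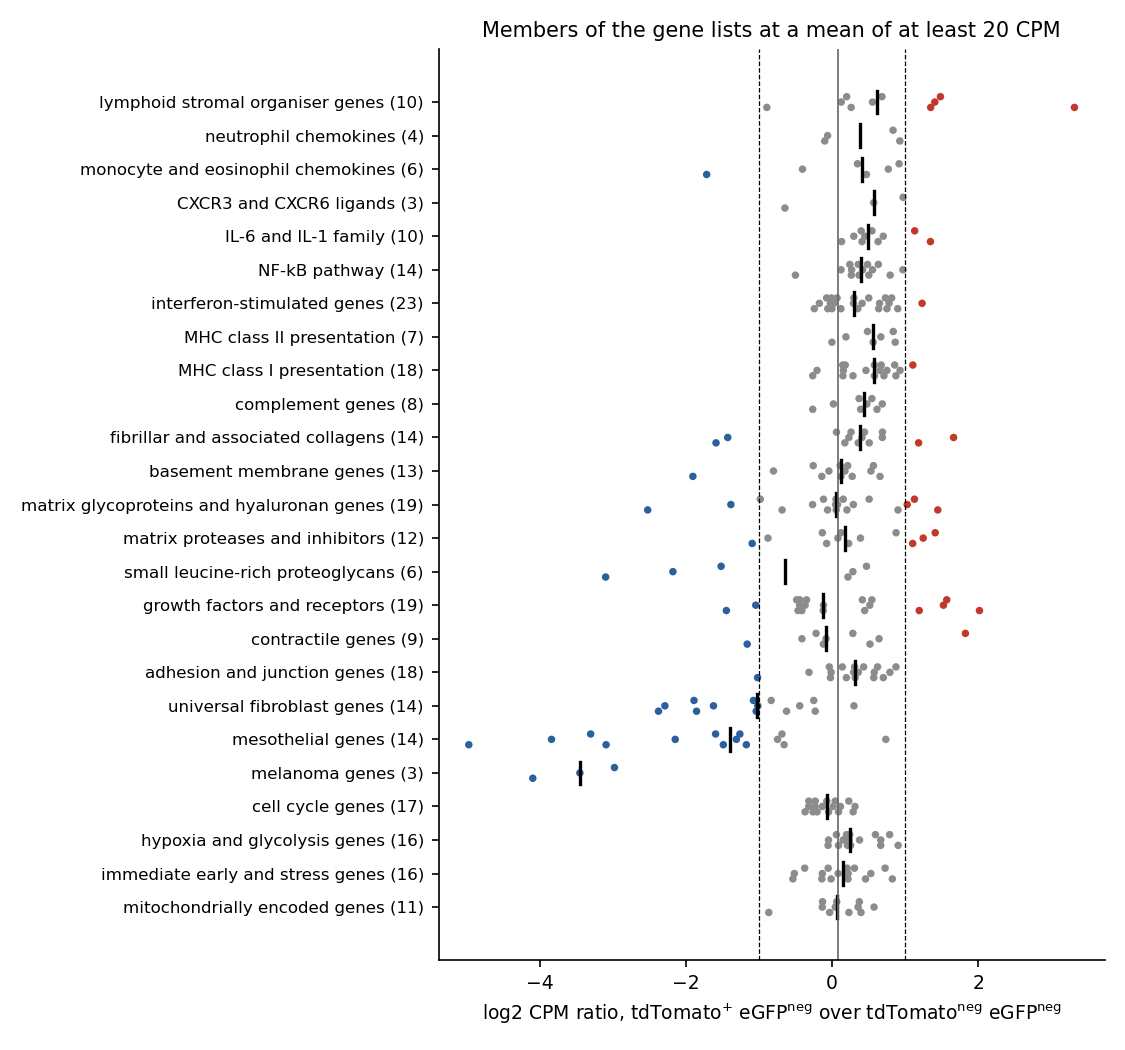
Log2 CPM ratios (tdTomato+ eGFP neg over double-negative, horizontal axis) of the compared members of 25 gene lists, 1 point a gene, with the number compared beside each name. Red and blue points are at least 2-fold higher and lower, short bars are list medians, dashed lines mark 2-fold, and the grey line marks the median of all compared genes at 0.08, which universal fibroblast genes (-1.03) and mesothelial genes (-1.40) lie furthest from among lists with over 3 compared genes.

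Universal fibroblast genes were lower in tdTomato+ eGFP neg cells. Of 15 list members 14 were compared, 8 were called lower against a background of 1.54%, none higher, and the median log2 ratio was -1.03. *Pi16*, which marks this state, was at 23.4 and 121 CPM (-2.37, -2.47 to -2.28). The tetranectin gene *Clec3b* was at 99.3 and 368 CPM (-1.89), *Efemp1*, or fibulin-3, at 47.2 and 171 CPM (-1.85) and *Pcolce2*, an enhancer of procollagen cleavage, at 13.1 and 63.9 CPM (-2.29). *Dpp4*, a defining marker under the minimum, was at 3.74 and 33.6 CPM.

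Not every member of the list was lower by that much. *Ly6a*, its most abundant gene, was at 1907 and 2237 CPM (-0.23), *Igfbp6* at 721 and 857 CPM (-0.25), and *Cd248* lay above 0 at 166 and 135 CPM (0.30). *Gsn*, the actin-severing protein gelsolin, was outside the list and one of the most abundant of the lower genes, at 164 and 646 CPM (-1.98, -2.02 to -1.95). *S100a6*, a calcium-binding protein chosen after its value was seen, was the most abundant lower gene, at 4952 and 10053 CPM (-1.02), close to the 2-fold line. *Dpep1*, a membrane dipeptidase, was at 15.1 and 93.7 CPM (-2.63).

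As sequenced, *Pi16* UMIs were in 6.75% of tdTomato+ eGFP neg and 26.3% of double-negative cells, and after thinning in 2.24% and 12.7%. The *Pax3* cells gave 1.49% and 18.0% as sequenced, and 0% (upper bound 5.36%) and 2.73% after thinning. After thinning the double-negative share was above its *Pax3* background, and the tdTomato+ eGFP neg share was within the interval of its own. In *Ptprc* cells the thinned shares were 0% (upper bound 1.98%) and 0.877% (0.0222 to 4.79), and the shares of kept cells were above both intervals.

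The size of these ratios depended on which cells were compared. The median of the universal fibroblast list was -1.22 in *Xist*-only cells, with 9 of 14 genes lower, and -0.58 in Y-only cells, with 3 of 14. Over all compared genes 145 of 5820 were called lower in *Xist*-only and 45 of 5838 in Y-only cells. *Gsn* was at -2.61 and -0.46, *Efemp1* at -2.47 and -0.75 and *Pi16* at -2.64 and -1.44 in the same marks. Among cells with at least 2 UMIs of the mesothelial list after thinning the median was -0.48 and *Pi16* was at -0.75, and among cells with none they were -1.38 and -3.47. In the first of these strata *Gsn* was at -0.58, *Clec3b* at -0.78, *Ogn* at -0.73 and *Mfap5* at -0.28, all within 2-fold. Of the 88 lower genes 35 were past 2-fold there, and 3 turned above 0, among them *Col8a1* and *Fgf7*. Among cells with no mesothelial UMI 71 of the 88 were past 2-fold and 2 turned above 0. Among cells without a *Pi16* UMI the median of the universal fibroblast list was -0.55, with 4 of 13 genes lower, against 89 of all 5665 compared genes.

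Mesothelial genes were lower in tdTomato+ eGFP neg cells, with *Krt18*, *Krt8* and *Krt7* the lowest of the compared members. Of 18 members 14 were compared, 10 were called lower, against 1.54% of all compared genes, and none higher, the median was -1.40, or -1.94 in *Xist*-only and -0.93 in Y-only cells, and the list summed to 927 and 2009.5 CPM with *Aldh1a2*, a retinoic acid enzyme, the most abundant. *Krt18* had the lowest ratio of all genes at a mean of 50 CPM or more, with 4.24 and 133 CPM (-4.97, -5.18 to -4.76). Its partner *Krt8* was at 9.09 and 129.8 CPM (-3.84, -3.98 to -3.69) and *Krt7* at 12.9 and 127 CPM (-3.30). Mesothelin, *Msln*, was at 11.8 and 100.2 CPM (-3.09, -3.22 to -2.96), and the uroplakin genes *Upk1b* and *Upk3b* at 40.4 and 179 CPM (-2.14) and at 33.7 and 102 CPM (-1.59).

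The exception was *Wt1*, a transcription factor of the mesothelium, at 221 and 133 CPM (0.73, 0.69 to 0.77). *Aldh1a2* was at 191 and 307 CPM (-0.69), with -1.48 in *Xist*-only and 0.10 in Y-only cells. *Krt18*, *Krt8*, *Krt7*, *Msln* and *Upk1b* were past 2-fold in each mark, at -5.77 and -4.37 for *Krt18*. So these keratins were lower whichever mark was used. *Krt19* was at 50.9 and 143 CPM (-1.49) and *Lrrn4*, a membrane protein of mesothelium, at 31.2 and 70.2 CPM (-1.17), and both lost their calls in Y-only cells (-0.98 and -0.58).

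By cells, a *Krt18* UMI was in 1.25% of tdTomato+ eGFP neg and 18.0% of double-negative cells, or 0.522% and 7.71% after thinning. In *Pax3* cells the shares were 1.49% and 10.9%, or 0% (upper bound 5.36%) and 1.71% after thinning. The same held for *Msln*, at 1.07% and 8.45% of thinned cells (4.40% and 24.7% as sequenced) over 0% and 1.02% (1.49% and 12.2%). For both genes the thinned double-negative share exceeded its *Pax3* background, and the tdTomato+ eGFP neg share lay within the interval of its own. In *Ptprc* cells the thinned double-negative shares were 7.02% (3.08 to 13.4) for *Krt18* and 9.65% (4.92 to 16.6) for *Msln*. The shares of kept double-negative cells lay within these intervals, so neither was above the *Ptprc* background.

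Cells with at least 2 mesothelial UMIs after thinning numbered 1078 of 4600 tdTomato+ eGFP neg cells and 3638 of 9604 double-negative cells. This is a range and not a type, since 560 and 1189 of them held exactly 2 and another 1261 and 2122 cells held 1. The list's summed CPM also varied over the other libraries, at 1066 in the tdTomato+ eGFP+ and 2142 in the tdTomato neg eGFP+ library. Its part in the other differences was not tested beyond the strata. Of the 119 higher genes 103 were past 2-fold among cells with at least 2 mesothelial UMIs and 100 among cells with none.

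**Figure D3:**
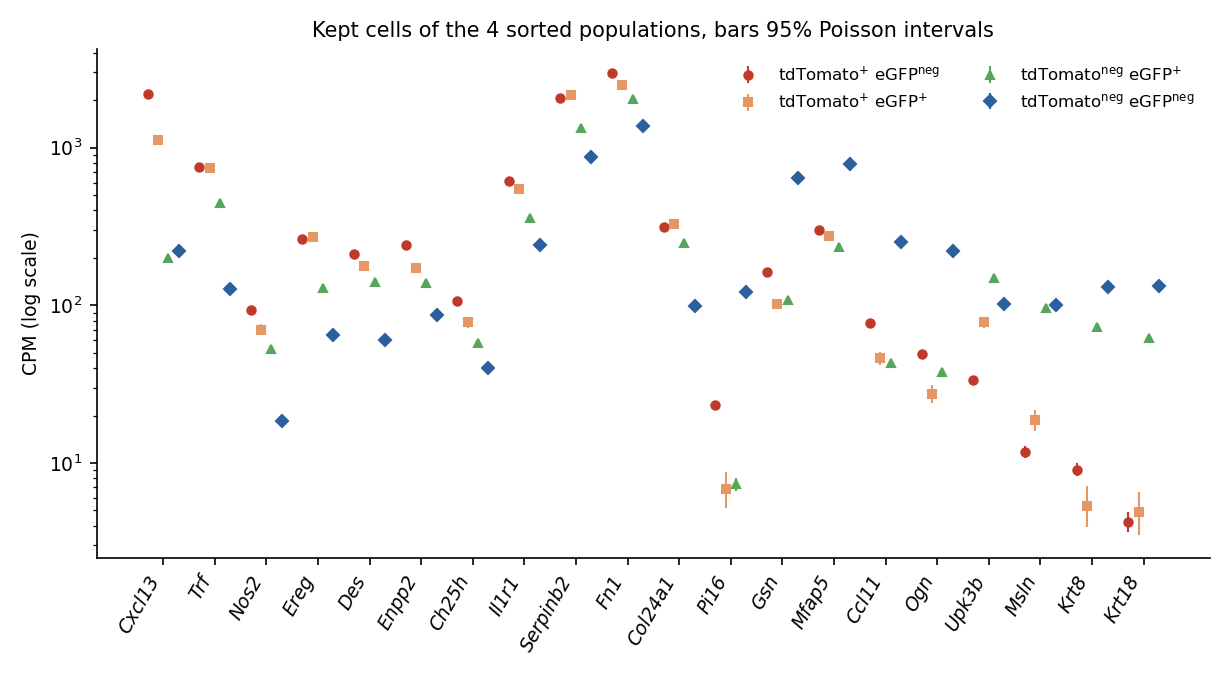
CPM (log scale, vertical axis) of 20 genes in kept cells of the 4 sorted populations, with bars for 95% Poisson intervals. *Trf*, *Ereg* and *Serpinb2* stood at like levels in the 2 tdTomato+ libraries, at 756 and 744 CPM for *Trf*, while *Krt8* and *Krt18* were low in both and *Pi16* was highest in the double-negative library.

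Melanoma genes were lower in tdTomato+ eGFP neg cells although cells with *Pax3* had been left out. Of 8 list members 3 were compared, all called lower, against 1.54% of all compared genes, and the list summed to 50.6 and 304 CPM, with *Dct* the most abundant and *Pax3* at 0 in both by the rule. *Mlana*, a pigment cell antigen, was at 5.63 and 96.0 CPM (-4.09), *Dct*, an enzyme of melanin synthesis, at 10.6 and 116 CPM (-3.45) and *Pmel*, the fibril protein of melanosomes, at 7.85 and 61.7 CPM (-2.98). The 2 libraries thus differed in residual melanoma RNA. A small number of cells held most of it: 4 tdTomato+ eGFP neg and 124 double-negative cells with at least 10 UMIs of *Pmel*, *Mlana*, *Dct*, *Tyr* and *Tyrp1* carried 64.4% and 87.5% of the UMIs of these genes.

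*Ptgds*, prostaglandin D synthase, went with the melanoma RNA. It was called lower at 11.4 and 179 CPM (-3.97, -4.10 to -3.85), and those 124 double-negative cells held 89.4% of its UMIs in that library. They held 1.55% of *Krt18* and 1.02% of *Krt8* UMIs. Leaving out cells with at least 2 UMIs of these melanoma genes and *Ptgds* left the ratio of *Krt18* at -4.94, with 87 of 88 lower and 114 of 119 higher calls still past 2-fold.

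The listed markers of immune, endothelial, pericyte and red blood cells were mostly under the CPM minimum. The immune list summed to 98.1 and 94.6 CPM, with 1 of 14 genes above the minimum, *Csf1r*, at 21.1 and 33.8 CPM (-0.68), which was the most abundant, and *Ptprc* at 0 by the rule. It summed to 73.0 and 82.7 CPM in *Xist*-only and 124 and 76.6 CPM in Y-only cells, so its direction differed between the marks. Members under the minimum included the myeloid *Lyz2* at 13.2 and 7.75 CPM. *Ctss*, of the MHC class II list, was also under it, at 8.72 and 5.67 CPM. Genes outside the list with known myeloid expression, chosen after their values were seen, were called higher, with *Cd14* at 174 and 67.9 CPM (1.36), *Trem2* at 59.9 and 22.7 CPM (1.40), *Slamf8* at 37.5 and 15.6 CPM (1.27) and *Irf8* at 38.6 and 16.5 CPM (1.22). Whether they came from myeloid cells was not tested. *Ighm*, the heavy chain gene of B-lineage IgM, was not on the list and was chosen after its values were seen. It was called higher at 47.7 and 15.5 CPM (1.62, 1.52 to 1.72), with 0.232 CPM in the tdTomato+ eGFP+ and 23.4 CPM in the tdTomato neg eGFP+ library. Its UMIs were in 2.29% and 0.679% of cells, or 0.457% and 0.156% after thinning, and in 10.4% and 0.680%, or 1.49% and 0%, of *Pax3* cells. The tdTomato+ eGFP neg share was thus below that of its *Pax3* cells. In *Ptprc* cells *Ighm* was in 27.7% and 18.5% as sequenced, at 2154 and 1813 CPM. Whether its UMIs in kept cells came from B-lineage cells was not tested.

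Endothelial genes summed to 63.1 and 33.7 CPM, of which *Flt1*, the VEGF receptor 1 gene, made up most. *Flt1* was the only 1 of 9 compared and was called higher at 56.2 and 21.3 CPM (1.40, 1.31 to 1.49), while *Cdh5*, *Tie1* and *Pecam1*, which define endothelium, were at 0.239, 0.0652 and 3.09 CPM in tdTomato+ eGFP neg cells and 0.344, 0.0661 and 2.33 CPM in double-negative cells.

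Of 7 pericyte genes none reached the minimum, and the list summed to 15.8 and 13.7 CPM with *Notch3* the most abundant. Red blood cell genes summed to 1.22 and 7.79 CPM over 5 genes, led by *Hbb-bs*, with none compared. Leaving out every cell with a UMI of *Pmel*, *Mlana*, *Dct*, *Tyrp1*, *Tyrobp*, *Fcer1g*, *Lyz2* or *Pecam1* left 3632 and 6921 cells, in which 113 of 119 higher and 81 of 88 lower genes were past 2-fold. *Pmel*, *Mlana* and *Dct* are among the 88 and were removed by the selection itself.

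Over all kept cells proliferation, hypoxia and stress genes gave no call, against 2.09% and 1.54% of all compared genes. Of 18 cell cycle genes 17 were compared with a median of -0.07, or -0.31 with at least 2 and 0.20 with no mesothelial UMIs after thinning. *Mki67* and *Top2a*, which mark dividing cells, were at 85.8 and 73.2 CPM (0.23) and at 175 and 173 CPM (0.01). Hypoxia and glycolysis genes, of which 16 of 19 were compared and 1 was not in the files, had a median of 0.24, and the glucose transporter *Slc2a1* the largest ratio, at 105 and 56.0 CPM (0.90). In *Xist*-only and in Y-only cells 1 gene of this list was called higher, against 115 of 5820 and 120 of 5838 compared genes. As a mean over cells 2 were, against 178 of 5796. Immediate early and stress genes, all 16 compared, had a median of 0.14, with *Fos* at 1252 and 1299 CPM (-0.05).

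Mitochondrially encoded genes gave 11 of 13 compared, no call, a median of 0.06 and sums of 10976 and 9245 CPM. The median cell had 0.933% and 0.702% of its UMIs from them. Their part in the other ratios was not tested beyond a mitochondrial limit of 5%, at which 116 of 119 higher and 87 of 88 lower genes were past 2-fold.

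**Figure D4:**
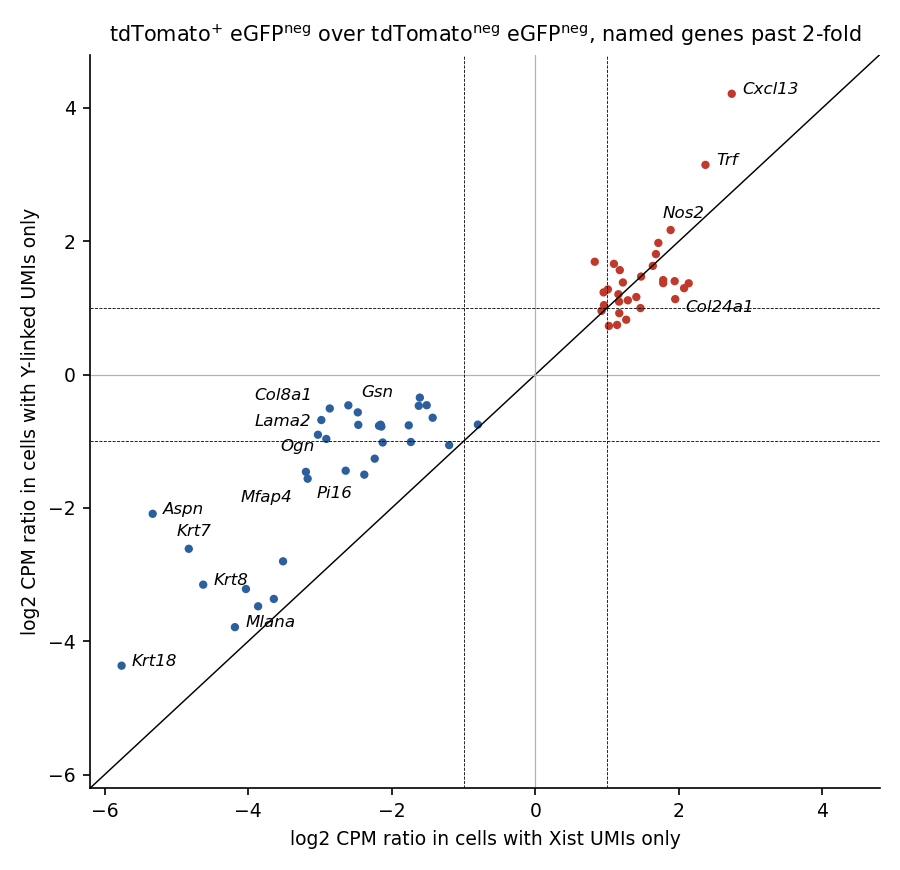
Log2 CPM ratios (tdTomato+ eGFP neg over double-negative) in cells with *Xist* UMIs only (horizontal axis) and with Y-linked UMIs only (vertical axis) for the named genes past 2-fold in all kept cells, red where higher and blue where lower, with equality as a solid line and 2-fold as dashed lines. *Gsn*, at -2.61 and -0.46, and *Lama2*, at -2.98 and -0.68, lie past 2-fold in *Xist*-only cells alone, and *Cxcl13*, at 2.74 and 4.21, in both.

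The other 2 sorted libraries are other populations and not replicates. *Serpinb2* was at 2148 CPM in tdTomato+ eGFP+ cells and 1328 in tdTomato neg eGFP+ cells, *Il1r1* at 546 and 359, and *Saa3* at 16220 and 10009.8. For these 3 genes tdTomato+ eGFP+ cells were near the tdTomato+ eGFP neg level and tdTomato neg eGFP+ cells lay between the tdTomato+ eGFP neg and double-negative values. Other higher genes differed more between the tdTomato+ libraries, such as *Cxcl13* and *Aqp1*, at 109.6 CPM in tdTomato+ eGFP neg and 72.1 CPM in tdTomato+ eGFP+ cells. *Pi16* was at 6.84 CPM in tdTomato+ eGFP+ and 7.34 CPM in tdTomato neg eGFP+ cells, but the universal fibroblast list as a whole, led by *Ly6a*, summed to 3500.5 CPM in tdTomato+ eGFP+, 3577 CPM in tdTomato neg eGFP+, 3537 CPM in tdTomato+ eGFP neg and 5034 CPM in double-negative cells. Mesothelial genes lay on both sides of the double-negative level in tdTomato neg eGFP+ cells, with *Upk3b* above it at 149 CPM and *Krt18* below it at 62.2 CPM.

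Each population was 1 library of pooled cells, so the counting intervals do not cover the spread between tumors, and sort, pool and library cannot be told apart from the reporter. The mice within a library cannot be told apart either, and the sex marks reach only cells with a sex-linked UMI. Levels are transcripts, and no protein was measured. The *Pax3* and *Ptprc* cells that gave the backgrounds were few, and the *Pax3* cells were deep, so a share near background was not resolved. Residual melanoma and mesothelial RNA differed between the libraries, and the part of each gene's difference that came with cell makeup was not tested beyond the strata given.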

How the data were processed

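The authors deposited UMI counts for 33696 genes per cell barcode, whole numbers without normalization, and the deposited counts were read as they stand. The matrix headers name Cell Ranger 8.0.0 and the submitters' processing notes Cell Ranger 10.0.0, STAR, Seurat 5.0 and the build GRCm39. Counts were summed and compared with Python 3.11.15, numpy 2.4.6, scipy 1.17.1 and pandas 2.3.3, and drawn with matplotlib 3.10.9. The 26 symbols carried by more than 1 gene were kept apart by identifier. Thinning used random seed 1. No doublet caller was run. Cells with both *Xist* and Y-linked UMIs were counted, and cells above 20000 UMIs were left out as an alternative. A count of 3 UMIs was the floor for a gene at 0, or 0.0652 CPM in tdTomato+ eGFP neg and 0.0397 CPM in double-negative cells.

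Genes to name were *Cxcl13*, the 15 highest and 15 lowest log2 ratios at a mean of at least 50 CPM, and in each of 31 lists up to 6 compared members by ratio and 4 by level, with defining markers at 0. *Saa3*, *Lcn2* and list members named outside this rule were chosen after their values were seen. The members and lists were chosen with earlier results of these data known. The sums and intervals were tested on simulated data with known changes. The alternatives were 15 that changed cells, scaling, averaging or the CPM minimum, and 3 chosen after seeing the data, which left out cells with at least 2 melanoma UMIs, or kept *Xist*-only or Y-only cells without melanoma, myeloid or endothelial UMIs. The authors' clustering and Wilcoxon tests across cells were not repeated.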

Additional observations from a re-analysis of the deposited data

How the results depend on the processing

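Of 63 named genes past 2-fold, 30 were past it under every alternative that gave a value. The 63 do not hold every gene named here. They leave out genes chosen after their values were seen, such as *Saa3*, *Lcn2*, *Il1rl2*, *Il1rap*, *Col6a5*, *S100a6*, *Gbp6*, *Gbp9*, *Cd14*, *Trem2*, *Slamf8*, *Irf8* and *Ighm*. Genes removed by the selection itself, such as *Pi16* among cells without *Pi16*, gave none. No paired analysis was possible because each population is 1 library.

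The count of higher genes was 119 and that of lower genes 88. *Xist*-only cells gave 145 lower genes and Y-only cells 45, or 164 and 41 without melanoma, myeloid or endothelial UMIs. Cells without cycling UMIs gave 136 lower genes, the mean over cells 144, thinned cells 153 (and 188 higher), and a minimum of 50 CPM 51. Without a CPM minimum 2481 were higher and 4222 lower of 24953, most of them genes of few UMIs. Median-of-ratios scaling gave 92 higher and 108 lower genes. The alternatives chosen after seeing the data were those without cells with at least 2 melanoma UMIs and those of 1 sex mark without melanoma, myeloid or endothelial UMIs.

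The log2 ratio of *Cxcl13* was 3.31 and kept its direction and its call: 3.27 with at least 10 collagen UMIs, 3.36 up to 20000 UMIs, 3.40 without melanoma, myeloid or endothelial UMIs, 2.74 in *Xist*-only and 4.21 in Y-only cells (2.98 and 4.49 without those UMIs), 3.03 without cycling UMIs, 3.75 with at least 2 and 2.96 with 0 mesothelial UMIs, 3.41 without *Pi16*, 3.28 without cells with at least 2 melanoma UMIs, 3.24 by median-of-ratios scaling, 3.29 as a mean over cells and 3.23 thinned. *Col8a1* (0.0462) and *Fgf7* (0.16) turned in cells with at least 2 mesothelial UMIs.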
